A study of Mus musculus with 8 samples.

Results

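Olfactory receptor genes lie in the mouse genome as tandem arrays, and the regions described here are those arrays together with the sequence between their genes. Autosomal protein-coding genes with symbols that start with Olfr were joined where neighbours lay under 100 kb apart on mm10. Groups of 5 or more genes were kept, each from its first gene start to its last gene end. This gave 42 clusters on 14 chromosomes, with 1034 of the 1104 autosomal receptor genes, and left out 36 smaller groups with 70 genes. The members are all peaks that lay wholly inside a cluster: 1447 of 142818 autosomal HMGA2 peaks, 687 of 119267 γ-H2AX peaks and 1007 of 112116 ATM peaks, 3141 of 397351 peaks when all chromosomes are counted. At the lower limit of the rule stood 3 clusters of exactly 5 genes inside it and 6 groups of exactly 4 genes outside it.

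The peaks come from chromatin immunoprecipitation and sequencing (ChIP-seq) on fibroblasts grown from C57BL/6 mouse embryos of stage E15.5 and used after 2 to 4 passages. The series has 8 libraries, 1 for each of HMGA2, H2AXS139ph (γ-H2AX, the histone H2AX phosphorylated on a serine near its end), ATM and input DNA in Hmga2 wt and Hmga2 Ko cells. Results below are from the HMGA2, γ-H2AX and ATM peaks of the Hmga2 wt cells, and data of the Hmga2 Ko cells and of input DNA were not analysed here. With 1 library per antibody there was no replicate error and no test between conditions. Every interval is a 95% interval for counting error only, and clusters, genes and peaks of a library are not replicates. Depth as a read total was not used, and the control used for peak calling is not given in the sources used here.

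Olfactory receptors are G protein-coupled receptors of the nasal sensory neurons. Each neuron transcribes mostly a single allele of a single receptor gene, and in other tissues the genes are mostly silent and packed in compact chromatin. The fish-like class I receptors form a single stretch of chromosome 7, and class II receptors make up the other arrays. HMGA2 is a chromatin protein that binds the minor groove of A/T-rich DNA through AT-hooks, and it is abundant in embryonic cells. ATM is a kinase that answers DNA breaks and phosphorylates H2AX, and γ-H2AX is the product of that phosphorylation.

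The 250 bases before the annotated start of 6 receptor genes are shown, because they are the promoters in which a peak of each list met receptor genes with the highest scores (2 genes per list). The score is the authors' own value for a peak, minus 10 times the log10 of its p, and it ranks peaks within a list only. Sequences are those of RefSeq on GRCm38.p6, written 5′ to 3′ along the strand of the gene, with the bases under the peak in capitals. Olfr3 (chr2:36813091-36813340, minus strand) and Olfr1157 (chr2:87968258-87968507, minus strand) carried HMGA2 peaks. Olfr1308 (chr2:111961072-111961321, minus strand) and Olfr444 (chr6:42955250-42955499, plus strand) carried γ-H2AX peaks. Olfr418 (chr1:173269897-173270146, plus strand) and Olfr773 (chr10:129187420-129187669, minus strand) carried ATM peaks.
Olfr3: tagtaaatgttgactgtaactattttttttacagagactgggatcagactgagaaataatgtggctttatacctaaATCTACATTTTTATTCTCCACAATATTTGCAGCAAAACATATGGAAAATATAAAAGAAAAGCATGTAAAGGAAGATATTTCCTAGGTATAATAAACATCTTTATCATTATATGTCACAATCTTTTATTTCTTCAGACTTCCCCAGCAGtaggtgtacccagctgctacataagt
Olfr1157: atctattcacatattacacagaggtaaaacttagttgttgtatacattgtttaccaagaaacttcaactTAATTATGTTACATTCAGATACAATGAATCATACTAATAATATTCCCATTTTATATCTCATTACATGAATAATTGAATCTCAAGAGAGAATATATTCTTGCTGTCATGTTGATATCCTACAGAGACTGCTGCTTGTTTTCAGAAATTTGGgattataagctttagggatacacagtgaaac
Olfr1308: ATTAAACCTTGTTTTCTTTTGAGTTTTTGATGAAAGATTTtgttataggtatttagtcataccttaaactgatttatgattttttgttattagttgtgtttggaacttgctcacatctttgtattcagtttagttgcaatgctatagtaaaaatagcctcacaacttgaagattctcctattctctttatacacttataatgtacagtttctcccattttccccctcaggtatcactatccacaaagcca
Olfr444: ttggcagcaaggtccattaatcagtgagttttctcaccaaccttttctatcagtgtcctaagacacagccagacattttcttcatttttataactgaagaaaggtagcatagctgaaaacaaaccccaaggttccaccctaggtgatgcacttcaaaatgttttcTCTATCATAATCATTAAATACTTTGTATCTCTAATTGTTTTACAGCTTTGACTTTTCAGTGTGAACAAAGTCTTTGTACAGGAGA
Olfr418: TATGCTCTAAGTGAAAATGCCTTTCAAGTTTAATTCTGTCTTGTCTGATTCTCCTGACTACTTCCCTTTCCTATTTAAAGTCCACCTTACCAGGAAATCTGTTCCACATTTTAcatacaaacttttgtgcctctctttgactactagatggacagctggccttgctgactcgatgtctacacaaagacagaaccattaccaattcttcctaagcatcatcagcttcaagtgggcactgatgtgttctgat
Olfr773: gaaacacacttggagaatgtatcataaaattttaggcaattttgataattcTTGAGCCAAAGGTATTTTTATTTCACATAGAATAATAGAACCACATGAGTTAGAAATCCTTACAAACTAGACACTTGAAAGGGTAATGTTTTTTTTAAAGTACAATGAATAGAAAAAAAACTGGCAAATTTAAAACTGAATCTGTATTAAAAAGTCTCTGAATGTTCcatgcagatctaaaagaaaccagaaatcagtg
The HMGA2 peaks covered 148 and 150 of the 250 bases at Olfr3 and Olfr1157, which were 68.8% and 70.4% A or T. The γ-H2AX peaks reached 40 bases at Olfr1308 and 85 bases at Olfr444, whose promoters were 68.8% and 63.6% A or T. The ATM peaks covered 113 bases at Olfr418 and 167 bases at Olfr773, with 59.6% and 71.2% A or T. These A/T shares are of all 250 bases, not of the bases under a peak. Receptor promoters are A/T-rich at large, with a median of 66.4%, so the 6 shown cannot tell the lists apart by A/T share. No peak of another list touched any of the 6.

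Inside the clusters γ-H2AX peaks were sparse, HMGA2 peaks were about as dense as in the rest of the autosomes, and ATM peaks lay between. The clusters span 24.6 Mb, 1.02% of the autosomal sequence between the first and last peak of any list on each chromosome. They held 1.01% of the autosomal HMGA2 peaks, 0.898% of the ATM peaks and 0.576% of the γ-H2AX peaks. For HMGA2 the density was 58.8 peaks per Mb in the clusters (55.8 to 61.9), 51.5 in the 500 kb on either side (49.1 to 54.0) and 59.4 over the autosomes. For γ-H2AX it was 27.9 per Mb (25.8 to 30.1), against 46.1 in the flanks (43.8 to 48.4) and 49.6 over the autosomes. For ATM it was 40.9 per Mb (38.4 to 43.5), against 45.1 in the flanks (42.9 to 47.5) and 46.7 over the autosomes.

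Cluster density divided by flank density was 0.606 for γ-H2AX (exact conditional interval 0.553 to 0.663) and 0.906 for ATM (0.836 to 0.982). For HMGA2 the pooled ratio was 1.14 (1.06 to 1.22), but the direction was not that of a typical cluster: the median of the 42 ratios was 0.940, and 19 of the 42 were above 1. Without the largest cluster, Olfr996 to Olfr1274 on chromosome 2, the HMGA2 ratio was 1.07, and without it and the second largest, Olfr160 to Olfr986 on chromosome 9, it was 1.04. The γ-H2AX ratio was 0.627 and 0.601 under the same omissions. Set against each other over the same sequence, the γ-H2AX ratio was 0.531 times that of HMGA2 (0.473 to 0.596) and the ATM ratio was 1.5 times that of γ-H2AX (1.32 to 1.69). Mappability, base composition and copy-number of the repeated receptor sequences were not measured, and their part in any cluster-to-flank ratio was not tested. How reads that fit several receptor copies were treated is not given in the sources used here, so the assignment of a peak to 1 of several near-identical genes is uncertain.

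**Figure D1:**
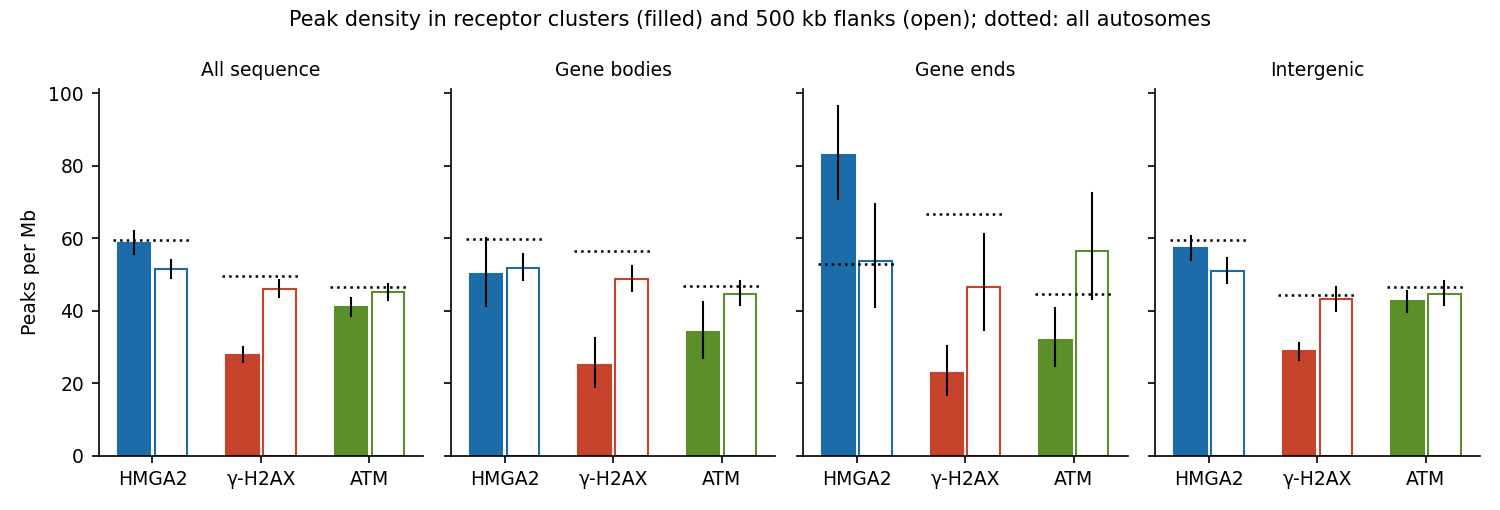
Peaks per Mb for the 3 antibodies in the 42 clusters (filled bars) and their 500 kb flanks (open bars), over all sequence and in gene bodies, the 1 kb outside gene ends and intergenic sequence; lines are 95% exact Poisson intervals and dotted lines the autosomes. The γ-H2AX bars of the clusters stand between 22.7 and 28.7 per Mb in every panel, below the flanks at 43.2 to 48.9, and the HMGA2 bar at gene ends stands at 82.8.

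The low γ-H2AX density was spread over many clusters. It was below the cluster's own flank in 35 of the 42 clusters and in 14 of the 15 clusters with 20 or more genes, with intervals wholly below 1 in 11 and 8 of them. ATM was below its flank in 24 of 42 clusters and 11 of 15, with 1 interval wholly below 1 among the 42 and none among the 15. Clusters that lie close together share flank sequence, so the ratios of such neighbours are not independent. Pooled flank densities count shared sequence only once. γ-H2AX was the least dense of the 3 antibodies in 31 of 42 clusters, and in 14 of the 15 large ones. Over the autosomes ATM was the least dense, at 46.7 peaks per Mb against 49.6 for γ-H2AX. The share of other regions with γ-H2AX lowest was not counted. All 42 clusters held peaks of each list. The exception in the other direction was Olfr1408 to Olfr418 on chromosome 1, 1 of the 3 clusters of 5 genes, named after its values were seen. It had 11 γ-H2AX peaks, 2.37 times its flank (1.08 to 4.80). Across the 42 clusters HMGA2 ranged from 12.5 to 100.5 peaks per Mb (median 53.3). The range was 6.47 to 78.0 in the γ-H2AX list (median 26.7) and 20.7 to 88.6 in the ATM list (median 41.6).

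The largest array, Olfr996 to Olfr1274 on chromosome 2 (85579215 to 90401674), has 216 genes in 4.82 Mb. It held 352 HMGA2 peaks (73.0 per Mb, flank 50.5), 121 γ-H2AX peaks (25.1, flank 56.1) and 180 ATM peaks (37.3, flank 47.1). HMGA2 was 1.45 times its flank there (1.06 to 2.02) and γ-H2AX 0.448 times (0.319 to 0.635). The cluster was therefore high for one antibody and low for another over the same sequence. Olfr160 to Olfr986 on chromosome 9, with 95 genes, had 65.4 HMGA2, 35.9 γ-H2AX and 34.7 ATM peaks per Mb. Its HMGA2 ratio was 1.64 (1.15 to 2.37), but its γ-H2AX ratio, 0.946 (0.640 to 1.42), was near 1. The second largest cluster was thus an exception to the low γ-H2AX density relative to the flank.

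Other large class II arrays fell into both kinds. Olfr9 to Olfr827 on chromosome 10 (58 genes) had 71.2 HMGA2, 23.7 γ-H2AX and 41.8 ATM peaks per Mb, with a γ-H2AX ratio of 0.449 (0.272 to 0.731). Olfr338 to Olfr368 on chromosome 2 (28 genes) had 53.3, 24.1 and 48.1, and the lowest γ-H2AX ratio of the 15, 0.382 (0.226 to 0.624). Olfr172 to Olfr209 on chromosome 16 (25 genes) had 56.5, 26.6 and 39.9, with a ratio of 0.429 (0.231 to 0.752). In these 3 arrays the γ-H2AX intervals lay below 1. Olfr1444 to Olfr1505 on chromosome 19 (41 genes) had 38.7 HMGA2, 21.7 γ-H2AX and 39.7 ATM peaks per Mb, and HMGA2 and γ-H2AX were both low against the flank, at 0.559 (0.369 to 0.840) and 0.474 (0.273 to 0.805). Olfr30 to Olfr311 on chromosome 11 (21 genes) was low in all lists, with 25.8, 18.1 and 20.7 per Mb and ratios of 0.698 (0.310 to 1.43), 0.421 (0.160 to 0.943) and 0.470 (0.191 to 1.01).

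The remaining large arrays had γ-H2AX ratios whose intervals held 1, or belonged to class I. Olfr467 to Olfr519 on chromosome 7 (42 genes) was the only one of the 15 with more γ-H2AX than its flank, at 26.9 against 18 per Mb, a ratio of 1.49 (0.801 to 2.85). Its HMGA2 and ATM densities were 47.2 and 38.0 per Mb, and its HMGA2 ratio, 1.75 (1.08 to 2.90), was the highest of the 15. The high ratios of this array stood over sparse flanks, at 27, 18 and 28 peaks per Mb. Olfr1275 to Olfr1318 on chromosome 2 (37 genes) had 75.6, 35.6 and 56.1 peaks per Mb for HMGA2, γ-H2AX and ATM. Olfr90 to Olfr761 on chromosome 17 (36 genes), which borders the major histocompatibility complex, had 51.9, 33.4 and 41.5. Olfr722 to Olfr749 on chromosome 14 (27 genes) had 54.1, 32.9 and 52.9. These 3 had γ-H2AX ratios of 0.775, 0.857 and 0.803. Olfr693 to Olfr716 on chromosome 7 (25 genes) had 57.3, 29.7 and 40.4 per Mb and a γ-H2AX ratio of 0.959. Olfr389 to Olfr412 on chromosome 11 (21 genes) had 39.0, 22.1 and 45.8, with a ratio of 0.687.

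By the HMGA2 ratio, the 3 highest of the 15 large arrays were Olfr467 to Olfr519, Olfr160 to Olfr986 and Olfr996 to Olfr1274, and the 3 lowest were Olfr1444 to Olfr1505, Olfr172 to Olfr209 and Olfr30 to Olfr311. The intervals of those 3 highest ratios lay above 1, and those of the lowest 2 lay below it. In the 15 large arrays HMGA2 was denser than γ-H2AX in 15 and denser than ATM in 13. HMGA2 was also the densest list over the autosomes, at 59.4 peaks per Mb against 49.6 for γ-H2AX and 46.7 for ATM. Of all autosomal 500 kb windows, 59.0% had fewer γ-H2AX than HMGA2 peaks, and the share for ATM was not counted. Across the 42 clusters the densities of HMGA2 and γ-H2AX had a Spearman's rho of 0.147 and a Pearson's r of 0.164. Across the 15 large arrays they were 0.557 and 0.585. Both are descriptions over regions that share libraries and differ in size.

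**Figure D2:**
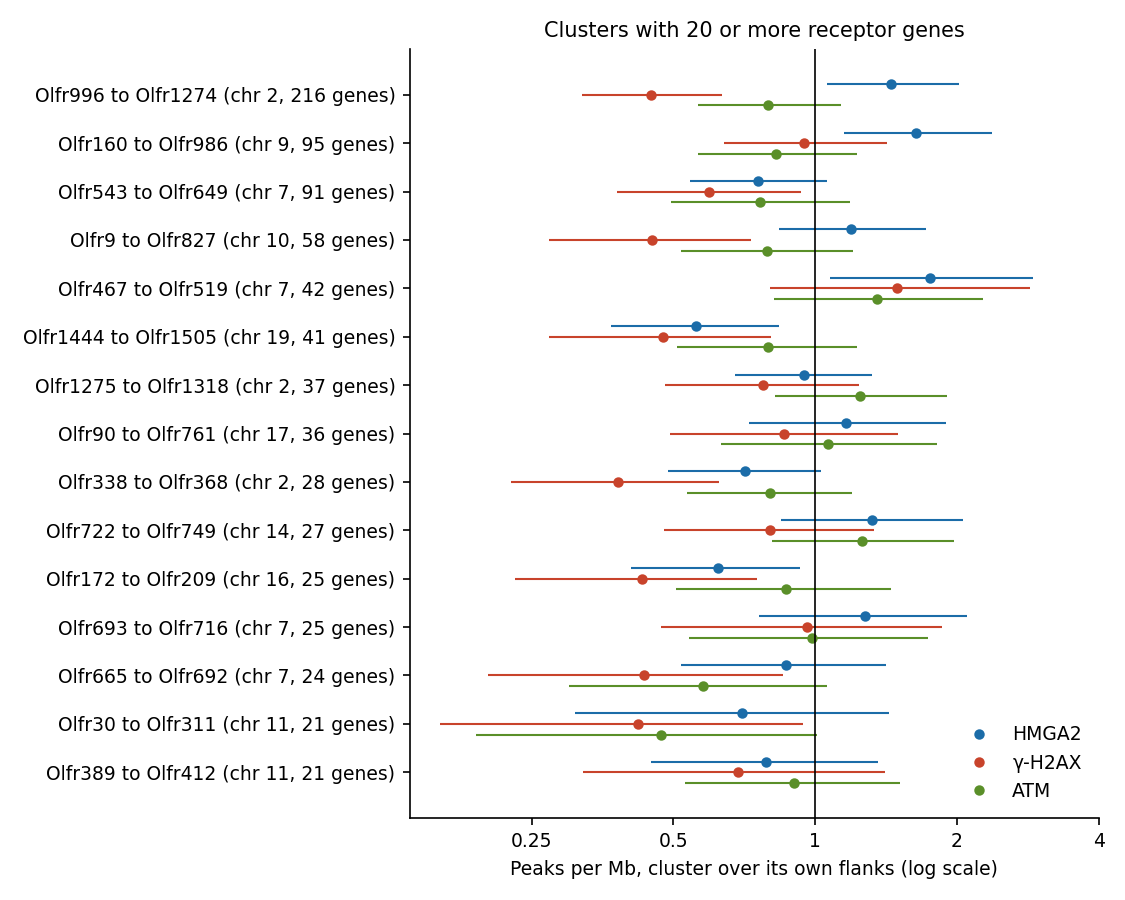
Cluster density over flank density for each of the 15 clusters with 20 or more receptor genes, on a log axis, with 95% exact conditional intervals; the vertical line marks equal density. The γ-H2AX point is left of the line in 14 clusters, ATM in 11 and HMGA2 in 8.

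The class I stretch on chromosome 7 comprised 3 clusters with 126 genes. Olfr543 to Olfr649 (91 genes) had 54.3 HMGA2, 26.8 γ-H2AX and 32.7 ATM peaks per Mb, and Olfr665 to Olfr692 (24 genes) had 53.2, 22.5 and 30.7. Their γ-H2AX ratios to the flanks were 0.594 (0.379 to 0.934) and 0.434 (0.202 to 0.854). Over the whole stretch HMGA2 had 53.1 peaks per Mb (44.2 to 63.3), γ-H2AX 26.3 (20.2 to 33.8) and ATM 33.1 (26.2 to 41.4). The other 39 clusters had 59.3 (56.2 to 62.6), 28.1 (25.9 to 30.3) and 41.7 (39.1 to 44.5). The intervals of both classes overlapped for each antibody. Among the small arrays, Olfr1513 to Olfr1507 on chromosome 14 lies beside the H element, a textbook enhancer of receptor gene choice, and is named for that although it is outside the naming rule. Its 7 HMGA2, 2 γ-H2AX and 5 ATM peaks were too few to set it apart from its flanks.

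The fall in γ-H2AX density coincided with the cluster edges. In the 5 bins of 100 kb outside the edges it ranged from 44.6 to 49.7 peaks per Mb. In the first 100 kb inside it was 30.4 (26.6 to 34.6), against 44.6 (40.1 to 49.5) in the first 100 kb outside. Deeper bins up to 500 kb inside held 26.3 to 28.0 per Mb. HMGA2 showed no such fall, with 51.8 per Mb just outside and 51.3 just inside, and 53.2 to 60.9 further in. ATM had 43.7 just outside, 45.6 just inside and 35.5 to 43.7 further in.

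**Figure D3:**
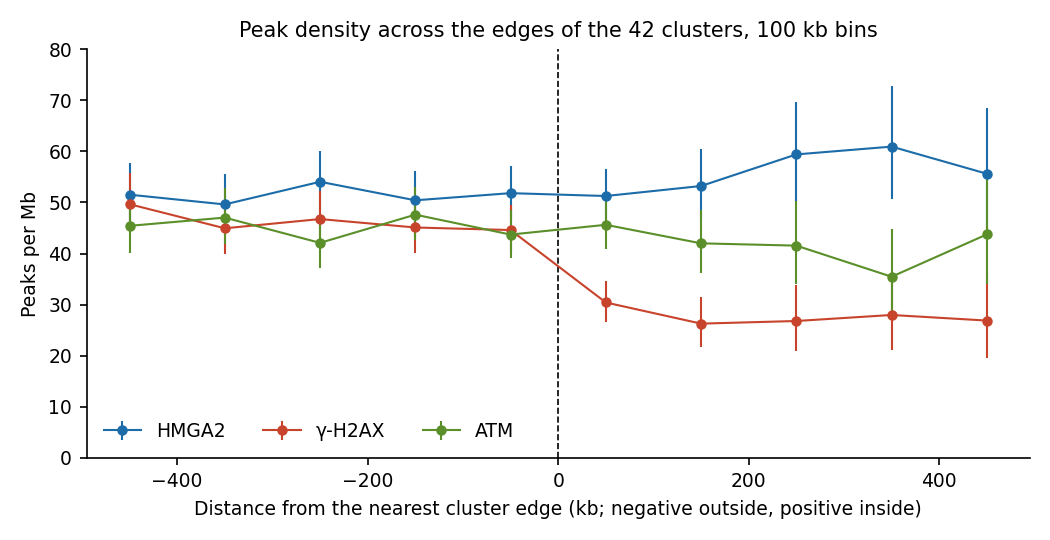
Peaks per Mb in bins of 100 kb by distance from the nearest cluster edge, outside (negative) and inside (positive), pooled over the 42 clusters, with 95% exact Poisson intervals. The γ-H2AX line drops from 44.6 to 30.4 across the edge and stays between 26.3 and 28.0, and the other lines do not drop there. Deep bins rest on fewer, larger clusters.

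Gene content differs between the clusters and their flanks. The clusters held 43.4 protein-coding genes per Mb, with a median length of 951 bp, and 34 of their 1068 were not receptor genes. The flanks held 19.4 per Mb, with a median length of 12659 bp. Of their 645 protein-coding genes, 31 were olfactory receptor genes outside the clusters and 20 were vomeronasal receptor genes. Gene bodies made up 9.41% of the cluster sequence and 48.7% of the flanks, so each kind of sequence was compared with its like. In gene bodies HMGA2 had a cluster-to-flank ratio of 0.965 (0.788 to 1.17), γ-H2AX of 0.512 (0.385 to 0.669) and ATM of 0.763 (0.597 to 0.963). In intergenic sequence, 82.4% of the clusters, the ratios were 1.13 (1.03 to 1.23), 0.666 (0.595 to 0.745) and 0.951 (0.860 to 1.05). γ-H2AX was therefore sparser than in the flanks both within genes and between them.

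At gene ends, the 1 kb outside either end, the antibodies parted most. HMGA2 had 82.8 peaks per Mb at gene ends in the clusters (70.8 to 96.3) and 53.7 in the flanks (40.9 to 69.3), a ratio of 1.54 (1.14 to 2.11). This ratio was 1.21 without Olfr996 to Olfr1274 and 1.14 for peaks with scores of 25 or more. γ-H2AX had 22.7 (16.6 to 30.3) and 46.5 (34.6 to 61.1), a ratio of 0.488 (0.32 to 0.742). ATM had 32.0 (24.7 to 40.8) and 56.5 (43.3 to 72.4), a ratio of 0.567 (0.394 to 0.817). Within the clusters, gene ends had 1.44 times the HMGA2 density of intergenic sequence (1.22 to 1.70), 0.789 times that of γ-H2AX (0.571 to 1.07) and 0.753 times that of ATM (0.576 to 0.970). Over all autosomes the same ratios were 0.890, 1.5 and 0.960, so that HMGA2 and γ-H2AX stood in opposite order at the ends of receptor genes and of genes at large. This HMGA2 ratio of gene ends to intergenic sequence was 1.86 in Olfr996 to Olfr1274 alone (1.36 to 2.50) and 1.30 in the other 41 clusters (1.06 to 1.58). The ATM ratio was 0.795 in the other 41 clusters (0.593 to 1.05) and 0.758 for peaks with scores of 25 or more (0.483 to 1.14). Both of these ATM intervals hold 1.

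With distance from the nearest receptor gene, HMGA2 density fell from 85.4 peaks per Mb within 1 kb of a gene (73.0 to 99.3) to 66.5 at 1 to 5 kb (60.7 to 72.6) and 52.9 at 5 to 10 kb (47.3 to 58.9). Beyond 10 kb it stayed at 51.2 to 51.3, and in receptor gene bodies it was 48.9 (39.7 to 59.6). γ-H2AX had 21.4 within 1 kb (15.4 to 28.9) and 30.4 at 5 to 10 kb (26.3 to 35.1), with overlapping intervals. ATM had 32.0 (24.6 to 41.0) and 46.3 (41.1 to 52) at the same distances. HMGA2 peaks in the clusters were thus densest beside the receptor genes, in a band of a few kb that the gene bodies did not share.

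The strand was known for 839 receptor genes whose RefSeq start matched the annotated gene end. HMGA2 had 82.9 peaks per Mb in the 1 kb before the start (64.5 to 104.9) and 89.0 in the 1 kb after the end (69.9 to 111.8). Over that 1 kb both sides of the gene were alike within counting error. From 1000 to 2000 bp it had 80.7 before the start and 61.7 after the end. From 2000 to 3000 bp these were 79.4 (61.4 to 101.1) and 51.4 (37.1 to 69.5), and from 3000 to 4000 bp 71.3 and 62.9. The order was the reverse from 4000 to 5000 bp, at 59.4 and 63.0. Intervals of the sides overlapped in each bin. The bins were not compared together, so a difference between the sides beyond 1 kb was not tested. The 0 to 500 bp just before the start held 64.8 (42.7 to 94.3) and the next 500 bp held 100.9 (72.7 to 136.4), intervals that overlap. For 8944 other protein-coding genes with a matched start, HMGA2 had 49.0 per Mb in the 1 kb before the start (44.1 to 54.3). γ-H2AX showed the reverse: 24.0 per Mb in the 1 kb before receptor genes (14.7 to 37.1) and 84.9 before the other genes (78.3 to 91.8). In the first 500 bp before the other genes γ-H2AX reached 90.3 per Mb, a rise towards the start that receptor genes, at 26.4 (13.2 to 47.3), did not show. ATM had 33.6 per Mb before receptor genes (22.3 to 48.6) and 46.1 before the others (41.4 to 51.3), with overlapping intervals.

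**Figure D4:**
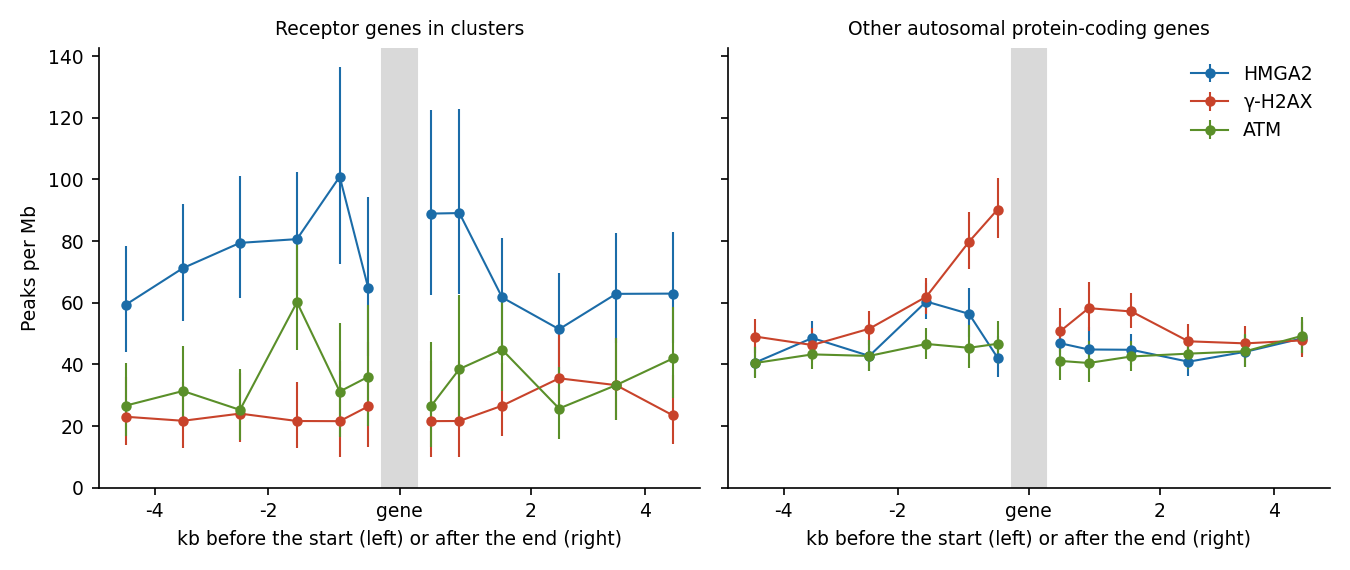
Peaks per Mb by distance before the start and after the end of 839 receptor genes in clusters (left) and 8944 other autosomal protein-coding genes (right), gene bodies left out (grey), with 95% exact Poisson intervals. Before receptor genes HMGA2 is the highest line and γ-H2AX stays between 21.6 and 26.4, and before other genes γ-H2AX climbs to 90.3.

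Counted per gene, a peak in the body or within 1 kb of an end was found at 231 of the 1034 receptor genes for HMGA2 (22.3%, Wilson interval 19.9 to 25), against 54.0% of all 20661 autosomal protein-coding genes. For γ-H2AX it was 85 genes (8.22%, 6.70 to 10.1), against 60.7%. For ATM it was 126 genes (12.2%, 10.3 to 14.3), against 56.4%. The 70 autosomal receptor genes outside the clusters had γ-H2AX peaks at 8.57% (3.99 to 17.5) and ATM peaks at 10% (4.93 to 19.2). Both intervals held the share inside the clusters, so these low shares were not particular to clustered receptor genes. For HMGA2 the share outside was 8.57% (3.99 to 17.5), an interval below that of the clusters. Receptor genes are short, with a median of 948 bp against 17491 bp for all genes. Among genes of up to 2 kb, HMGA2 peaks were found at 19.4% of 891 receptor genes (17.0 to 22.1) and 12.3% of 1338 other genes (10.7 to 14.2). For γ-H2AX the shares were 6.06% (4.67 to 7.82) and 16.0% (14.1 to 18.1), and for ATM 9.88% (8.09 to 12) and 13.0% (11.3 to 14.9). At like length the receptor genes' share was the larger for HMGA2 and the smaller for γ-H2AX, with intervals apart, and the intervals for ATM overlapped.

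No list had a peak at 670 of the 1034 receptor genes (64.8%, against 21.6% of all autosomal protein-coding genes). A single list had one at 296, a pair of lists at 58, and all 3 lists at 10 (0.967%, against 36.1%). The 10 were Olfr1393, Olfr165, Olfr91, Olfr687, Olfr689, Olfr702, Olfr18, Olfr145, Olfr27 and Olfr44. Most of them are long for receptor genes, such as Olfr687 (48745 bp) and Olfr91 (40147 bp). Olfr689, at 963 bp on chromosome 7 (105314006 to 105314968), was the exception, with HMGA2, γ-H2AX and ATM scores of 20.66, 24.73 and 24.97. The highest scores among the 10 were 51.12 for HMGA2 at Olfr91 and 38.44 for ATM at Olfr145.

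Among other chemosensory families, vomeronasal receptor genes (Vmn1r and Vmn2r), which serve pheromone detection, had HMGA2, γ-H2AX and ATM peaks at 41.2%, 27.4% and 32.5% of 354 genes. Their clusters, built by the same rule, numbered 20 in 9.05 Mb, with 49.0 HMGA2 (44.5 to 53.7), 31.2 γ-H2AX (27.6 to 35.0) and 57.0 ATM peaks per Mb (52.2 to 62.2). The γ-H2AX density of the olfactory clusters was 0.895 times that of the vomeronasal clusters (0.778 to 1.03), an interval that holds 1. The ATM density was 0.717 times (0.644 to 0.799) and the HMGA2 density 1.2 times (1.08 to 1.34). The vomeronasal γ-H2AX density was also below that of its own flanks, at 0.828 times (0.716 to 0.956), and their ATM density was above, at 1.29 times (1.15 to 1.45). Autosomal sequence over 100 kb from any protein-coding gene, 657.6 Mb, had 69.7 HMGA2, 41.9 γ-H2AX and 46.3 ATM peaks per Mb. Against it the olfactory clusters had 0.666 times the γ-H2AX density (0.616 to 0.718), 0.842 times that of HMGA2 (0.799 to 0.888) and 0.883 times that of ATM (0.829 to 0.941). Bitter taste receptor genes (Tas2r, 35 genes) and trace amine receptor genes (Taar, 15 genes) had γ-H2AX peaks at 2 genes each, too few to compare. They had HMGA2 peaks at 5 and 4 genes and ATM peaks at 7 and 3. Keratin genes (Krt), a tandem family of another function with a median length of 7070 bp, had HMGA2, γ-H2AX and ATM peaks at 7, 13 and 14 of 53 genes. These are 13.2%, 24.5% and 26.4%, against 54.0%, 60.7% and 56.4% of all autosomal protein-coding genes.

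In windows of 500 kb, 24 of 4795 autosomal windows lay at least 90% inside clusters, 9 of them in Olfr996 to Olfr1274. Their HMGA2 counts ran from 13 to 52 with a median of 31.5 (29 over all windows), their γ-H2AX counts from 7 to 20 with a median of 14 (24 over all) and their ATM counts from 9 to 30 with a median of 19.5 (23 over all). A γ-H2AX count at least 1.5-fold below the median of all windows was found in 18 of the 24, against 23.6% of all windows. For HMGA2 it was 1 of 24, against 24.2%, and for ATM 4 of 24, against 11.1%. HMGA2 counts at least 1.5-fold above the median stood in 2 of the 24, against 15.4% of all windows. Such high counts of γ-H2AX stood in 0 of 24, against 15.6%, and of ATM in 0 of 24, against 4.88%. Outside the largest cluster, 11 of 15 windows were low for γ-H2AX. At least 2 HMGA2 peaks for each γ-H2AX peak stood in 14 of the 24, against 17.4% of all windows, and γ-H2AX was the smaller count in 24 of 24, against 59.0% of all windows. The most uneven window of the largest array (chromosome 2, 86068739 to 86568738) held 47 HMGA2, 8 γ-H2AX and 16 ATM peaks, and was picked out after its values were seen.

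**Figure D5:**
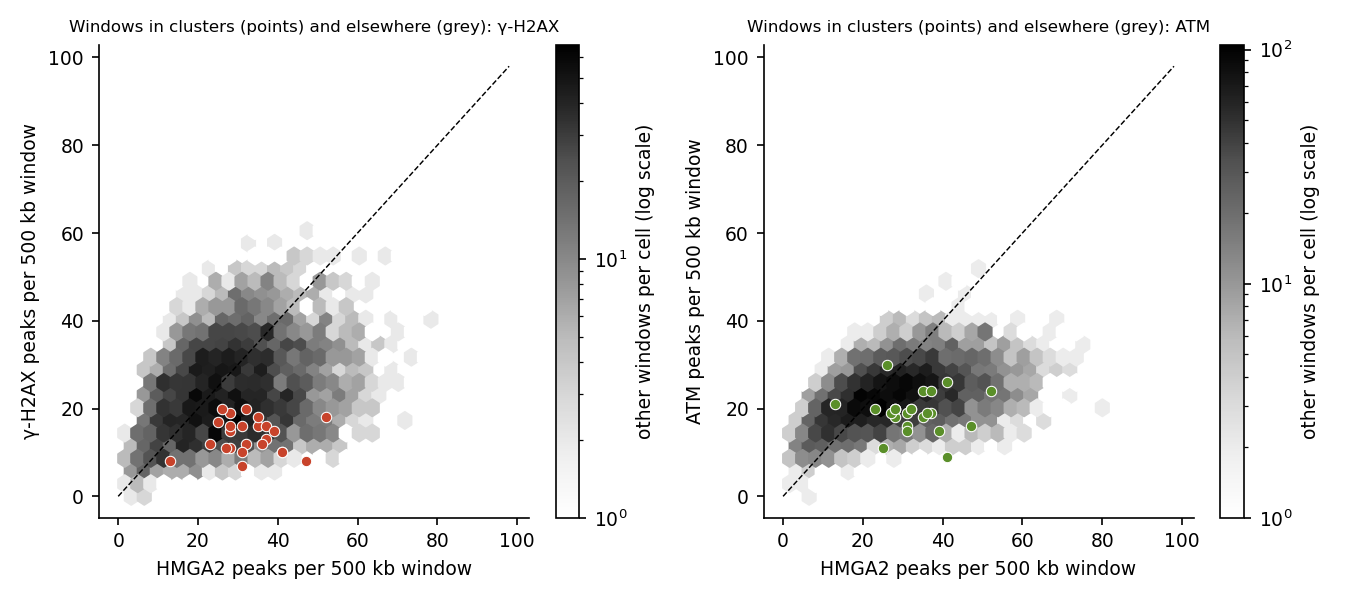
HMGA2 peaks per 500 kb window against γ-H2AX peaks (left) and ATM peaks (right), with the 24 windows in clusters as points, all other autosomal windows as grey cells (darker for more windows, log scale) and a dashed line at equal counts. The γ-H2AX points lie below the dashed line in 24 of 24 windows and at 20 peaks or fewer, and the ATM points lie below it in 22. The share of all windows below the line was not counted for ATM, whose autosomal list is shorter than that of HMGA2 (112116 against 142818 peaks).

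Between neighbouring peaks of a list inside a cluster, cluster edges left aside, the longest gap in the γ-H2AX list was 261 kb on chromosome 19, in Olfr1444 to Olfr1505, and it held 9 receptor genes. The longest gap between ATM peaks was 234 kb on chromosome 2, in Olfr996 to Olfr1274, with 7 receptor genes, and the longest between HMGA2 peaks was 108 kb on chromosome 11, in Olfr30 to Olfr311, with 5. Neighbouring peaks of a list lay a median of 10.7 kb apart in the HMGA2 list, 21.6 kb in the γ-H2AX list and 15.3 kb in the ATM list. With all 3 lists together, the longest gap between neighbouring peaks was 85.4 kb.

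Most members had scores close to the authors' threshold, as autosomal peaks did. In the clusters the median HMGA2 score was 23.6, the median γ-H2AX score 23.2 and the median ATM score 23.9, where 20 is the lowest that the authors kept. Over the autosomes the medians were 23.8, 23.6 and 23.6. None of the members was wider than 500 bp, and neither were most peaks elsewhere: 0.0840%, 0.0797% and 0.151% of the autosomal HMGA2, γ-H2AX and ATM peaks were. A score of 30 or more was reached by 9.81% of HMGA2 members (8.39 to 11.5), 8.59% of γ-H2AX members (6.72 to 10.9) and 11.1% of ATM members (9.33 to 13.2), against 11.5%, 10.4% and 10.2% over the autosomes. The autosomal share lay within the interval of the γ-H2AX and ATM members and just above that of the HMGA2 members. When peaks with scores of 30 or more were counted alone, the γ-H2AX cluster-to-flank ratio was 0.482, and the HMGA2 ratio was 1.09.

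The highest HMGA2 score in the clusters was 57.79, 2727 bp from Olfr810 on chromosome 10, and the third highest, 54.8, lay 2531 bp from Olfr814 in the same array, both with widths near 400 bp (397 and 383). The second was 55.27, 13146 bp from Olfr972 on chromosome 9. The fourth, 51.6, lay 640 bp from Olfr1151 on chromosome 2 and touched an ATM peak, and the fifth, 51.12, lay inside Olfr91. For γ-H2AX the highest were 51.12 near Olfr178 (chromosome 16, 6772 bp away), 47.78 near Olfr1380 (chromosome 11, 1761 bp) and 44.44 near Olfr95 (chromosome 17, 5091 bp), followed by 43.61 near both Olfr743 (10170 bp) and Olfr1408 (21592 bp). None of those 5 touched a peak of another list. For ATM they were 72.38 near Olfr1137 (chromosome 2, 2648 bp), 57.99 near Olfr1218 (chromosome 2, 2860 bp), 54.26 near Olfr493 (chromosome 7, 7670 bp), 51.12 near Olfr507 (247 bp) and 50.83 near Olfr345 (17724 bp). Of the 15 highest members, 1 lay in a receptor gene body and 2 lay within 1 kb of a receptor gene.

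Peaks of different lists seldom touched. Of 1447 HMGA2 members, 16 touched a γ-H2AX peak by at least 1 bp (1.11%, 0.682 to 1.79), against 2.72% of autosomal HMGA2 peaks. Those were 2.33% of the γ-H2AX members (1.44 to 3.75), against 3.25% over the autosomes. HMGA2 members touched ATM peaks in 29 cases (2.00%, 1.40 to 2.86), against 2.43%, and made up 2.88% of ATM members (2.01 to 4.11), against 3.09%. γ-H2AX members touched ATM peaks in 16 cases (2.33%, 1.44 to 3.75), against 2.68%, and 17 ATM members touched γ-H2AX peaks (1.69%, 1.06 to 2.69), against 2.84%. The shares of HMGA2 and of ATM members that touched γ-H2AX had intervals below their autosomal values, in regions where γ-H2AX peaks were themselves fewer. A single HMGA2 member touched peaks of both other lists (0.0691%, 0.0122 to 0.390), against 0.121% of autosomal HMGA2 peaks, a share within that interval. It lay in Olfr389 to Olfr412 on chromosome 11 (HMGA2 peak 74009294 to 74009442), 24688 bp from Olfr398, with scores of 24.09, 21.54 and 36.49 for HMGA2, γ-H2AX and ATM.

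Promoters of receptor genes are A/T-rich. RefSeq promoters (250 bases before to 50 after the start) were matched for 877 of the 1034 genes. Their median A/T share over the 250 bases before the start was 66.4% (quartiles 62% and 70%), against 44.4% for 16456 autosomal promoters. The median longest run of A or T was 11 bases against 6. In the 250 bases before the start, an HMGA2 peak touched 22 receptor promoters (2.51%, against 1.18% of all), a γ-H2AX peak 10 (1.14%, against 3.72%) and an ATM peak 8 (0.912%, against 1.73%). The receptor promoters with an HMGA2 peak had a median A/T share of 70%, as at Olfr1157 above. Among promoters with 60% to 70% A/T, HMGA2 peaks touched 1.42% of 492 receptor promoters (0.691 to 2.91) and 4.26% of 1057 other promoters (3.20 to 5.65). In the same range γ-H2AX peaks touched 1.02% (0.435 to 2.36) and 3.12% (2.23 to 4.35), and ATM peaks 0.813% (0.317 to 2.07) and 3.50% (2.55 to 4.79). At this A/T share the HMGA2 share was smaller for receptor promoters than for other promoters, the reverse of the order over all promoters. The intervals were apart for HMGA2 and ATM and overlapped for γ-H2AX. From 70% to 80% A/T, HMGA2 peaks touched 5.56% of 234 receptor promoters (3.28 to 9.27) and 2.22% of 90 others (0.612 to 7.74), with overlapping intervals.

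The deposited promoter regions were compared with the flanks and with the autosomes. Of the 2220 γ-H2AX promoter regions, 25 lay in the clusters, 1.02 per Mb against 1.99 in the flanks, a ratio of 0.511 (0.309 to 0.820). Of the 866 ATM promoter regions, 28 lay there, 1.14 per Mb against 0.904, a ratio of 1.26 (0.724 to 2.18). Over the autosomes there were 0.907 γ-H2AX and 0.350 ATM promoter regions per Mb. Against these the clusters had 1.12 times the γ-H2AX density (0.722 to 1.66) and 3.25 times the ATM density (2.15 to 4.74). The clusters are also rich in genes: per 100 protein-coding genes they held 2.34 γ-H2AX and 2.62 ATM regions, against 10.6 and 4.07 over the autosomes. The receptor genes with the highest-scoring regions were Olfr1308 (36.49), Olfr380 (35.34) and Olfr444 (33.05) for γ-H2AX and Olfr988 (34.73), Olfr926 (31.36) and Olfr591 (30.67) for ATM. Olfr1308 and Olfr444 are those whose promoter sequences are shown above, and Olfr689 was the nearest gene to a region of both lists.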

How the data were processed

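Peaks came from 1 ChIP-seq library per antibody of Hmga2 wt fibroblasts. Per the labels, the authors called them with MACS14 without its model, at a p threshold of 0.01 and a shift size of 30 bp. The deposited score of a peak is the authors' minus 10 times log10 p. The submitters' processing notes name Trimmomatic, Bowtie2, SAMtools, MACS and HOMER without versions, and mm10. The deposited promoter regions hold starts and ends only (unit other), and how they were chosen is not given in the sources used here. Their starts count from 1: 2220 of 2220 γ-H2AX and 788 of 866 ATM regions then equal a peak.

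Clusters, flanks and gene bodies used RefSeq genes on GRCm38.p6, protein-coding only. The flanks exclude other clusters but not the smaller groups of receptor genes that the rule left out. Peaks wholly inside a region were counted, and peak midpoints were used for gene bodies, ends and distances. Intervals were exact Poisson, exact conditional or Wilson, at 95%. Python 3.11.15, scipy 1.17.1 and pandas 2.3.3 were used, with overlaps checked against bedtools 2.31.1 and densities tested on simulated data.

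The members and lists were chosen with earlier results of these data known. Named were clusters with 20 or more genes, the 5 highest scores per list, places and genes with all 3 lists, the 3 highest and 3 lowest HMGA2 ratios, the 3 highest-scoring receptor genes of each promoter list, and the 2 promoters per list with the highest-scoring peak. For the last, a peak had to touch the 250 bases before the start, a limit set after the data were seen. The comparisons with vomeronasal clusters, with gene-poor sequence, along the strand and by A/T share were also added then.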

Additional observations from a re-analysis of the deposited data

Results flagged for a closer look

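The cluster-to-flank ratios of the antibodies lay on opposite sides of 1. The γ-H2AX ratio was 0.531 times that of HMGA2, and the ATM ratio was 0.794 times that of HMGA2 (0.713 to 0.885). Both compare 1 library with 1 library, and a difference between antibodies beyond counting error was not tested. The median HMGA2 ratio of the 42 clusters, 0.940, was on the other side of 1 from the pooled 1.14.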

How the results depend on the processing

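Of 144 alternative values, 122 stayed within the counting interval of the reported one, or within 1.5 times of it for counts of genes. Among the 122 are gene-body ratios at other widths of the gene-end windows. These could not change, because gene bodies do not depend on that width, so the 122 overstate the stability. The pooled HMGA2 ratio to the flanks reversed to 0.940 as a median over clusters and was 1.04 without the 2 clusters with the most genes, an alternative chosen after seeing the data. With scores of 25 or more and of 30 or more, the γ-H2AX ratio was 0.545 and 0.482, the γ-H2AX ratio relative to HMGA2 was 0.466 and 0.443, and the ATM ratio relative to γ-H2AX was 1.70 and 1.90. At 25 or more, the γ-H2AX ratio in gene bodies was 0.326, and 91, 24 and 49 receptor genes had an HMGA2, γ-H2AX or ATM peak, fewer peaks being counted. With gene ends of 2 kb, the wider windows counted 130 genes for γ-H2AX and 208 for ATM. The share of all autosomal protein-coding genes was not counted at either setting, so these gene counts cannot be compared with genes at large. In windows of 1000 kb, 0 of only 9 cluster windows (0%) were low for HMGA2, against 20.2% of all windows. For γ-H2AX 8 of the 9 were low (88.9%), against 17.3% of all windows. At scores of 25 or more, 0.193% of HMGA2 members touched γ-H2AX, 0.579% of HMGA2 members touched ATM and 1.38% of γ-H2AX members touched ATM. When an overlap of at least 50% of the shorter peak was asked for, 1.17% of HMGA2 members touched ATM. Autosomal shares were not counted under these stricter limits, which lower the share in any region, so the falls cannot be read as particular to the clusters. The density of gene ends over intergenic sequence was 1.86 for HMGA2 and 0.524 for γ-H2AX in the cluster with the most genes alone, also chosen after seeing the data. Other causes of these shifts were not tested. No paired analysis was possible because each antibody and genotype has 1 library and no knockout values were used. Small clusters hold few peaks, which limits their ratios.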
